A study of Mus musculus with 8 samples.

Results

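The Hox genes are the homeobox transcription factor genes that lie in the HoxA, HoxB, HoxC and HoxD clusters of the mouse genome. The 38 genes described here were listed by name, with no cut on a measured value, but with earlier results of these data known. HoxA gave 10 on chromosome 6, HoxB 10 on chromosome 11, HoxC 9 on chromosome 15 and HoxD 9 on chromosome 2. They were 38 of 23483 genes with a counted transcript, each taken as its RefSeq transcript with the highest total count. Their polyadenylated RNA was measured by sequencing in 4 groups of 2 libraries from C57BL/6 cells, all at 5.5 mM glucose. The mESC group held mouse embryonic stem cells kept with LIF, the cytokine that holds them undifferentiated. The 3 Sca1 groups came from such cells grown without LIF on gelatin for 4 days, enriched with beads against the surface protein Sca1 to a purity above 80% and expanded without LIF for 2 to 8 doublings. One of them was untreated. The NTC group carried a lentiviral non-target shRNA, and the knock-down group carried an shRNA with 1 target sequence in Set7, a lysine methyltransferase. Both shRNA groups were selected with puromycin (1 µg/ml), and no second Set7 hairpin was analysed here. The labels do not say whether the 2 libraries of a group came from separate cultures, so p-values measure only the spread between libraries.

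Hox genes are known to give cells their position along the head-to-tail axis. Within a cluster the genes lie in the order of the body levels they pattern, from paralogue group 1 (hindbrain) to group 13 (tail, distal limb and hindgut), and genes with the same number in different clusters are descended from 1 ancestor. In embryonic stem cells the clusters are a textbook target of Polycomb repressors, and in the embryo they open in this order under Wnt, Fgf and retinoic acid signals. Hox proteins bind DNA together with cofactors of the Pbx, Meis and Pknox families.

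The sequences upstream of 5 members are shown because these genes carry the results below: Hoxb1, Hoxd3 and Hoxd4 were among the 4 highest members per kilobase with NTC, and Hoxd10 and Hoxd11 lost most in the knock-down within HoxD. They come from RefSeq promoter windows (GRCm38.p6), lie on the plus strand and run 5′ to 3′ at chr11:96365508-96365751, chr2:74711743-74711926, chr2:74721728-74721977, chr2:74691641-74691890 and chr2:74682073-74682322, in the order printed. Each stops before the first transcribed base. Capitals mark matches on either strand to 4 searched motifs, TGATNNAT (a Hox-Pbx site), TGACAG (Meis), TTTATNG (Cdx) and AGGTCA (a retinoid receptor motif). Capitals in Hoxb1 and Hoxd11 mark the Hox-Pbx letters, those in Hoxd3 and Hoxd10 the receptor motif, and those in Hoxd4 first the receptor motif and then the Cdx letters.
Hoxb1: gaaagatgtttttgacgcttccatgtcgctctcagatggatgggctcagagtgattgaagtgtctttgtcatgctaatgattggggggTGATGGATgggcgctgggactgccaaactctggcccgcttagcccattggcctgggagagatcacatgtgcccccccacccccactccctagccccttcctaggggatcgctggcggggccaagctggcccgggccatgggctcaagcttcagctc
Hoxd3: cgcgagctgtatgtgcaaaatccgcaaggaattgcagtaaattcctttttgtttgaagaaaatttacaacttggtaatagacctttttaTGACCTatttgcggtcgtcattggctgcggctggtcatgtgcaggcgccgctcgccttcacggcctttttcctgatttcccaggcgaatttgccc
Hoxd4: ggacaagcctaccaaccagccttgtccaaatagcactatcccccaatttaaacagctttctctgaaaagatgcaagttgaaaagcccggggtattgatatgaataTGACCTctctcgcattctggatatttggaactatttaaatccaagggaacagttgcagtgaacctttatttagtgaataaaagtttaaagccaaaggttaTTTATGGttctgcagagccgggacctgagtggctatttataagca
Hoxd10: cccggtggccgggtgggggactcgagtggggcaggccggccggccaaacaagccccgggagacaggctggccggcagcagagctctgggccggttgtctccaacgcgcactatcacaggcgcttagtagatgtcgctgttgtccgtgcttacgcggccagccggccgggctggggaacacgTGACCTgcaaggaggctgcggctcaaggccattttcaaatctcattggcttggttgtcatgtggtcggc
Hoxd11: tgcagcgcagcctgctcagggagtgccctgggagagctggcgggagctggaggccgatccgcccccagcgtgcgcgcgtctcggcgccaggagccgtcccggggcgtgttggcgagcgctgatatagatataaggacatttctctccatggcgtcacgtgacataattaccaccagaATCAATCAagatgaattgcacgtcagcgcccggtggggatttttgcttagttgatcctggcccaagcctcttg

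Windows of this kind, 300 bases long, matched 22 of the 38 members. Their median GC content was 58.7% against 52.7% over all 32851 windows, and the median ratio of observed to expected CpG was 0.626 against 0.384. The Hox-Pbx letters were in 4 of 22 windows (18.2%; Hoxd11, Hoxa2, Hoxb8 and Hoxb1) against 8.85% of all windows. The receptor motif was in 7 (31.8%; Hoxd10, Hoxd8, Hoxd3, Hoxd4, Hoxa5, Hoxb4 and Hoxc4) against 16.3%. The Cdx letters were in 2 (9.09%; Hoxd4 and Hoxb8) against 10.9%, and the Meis letters in 2 (9.09%; Hoxa2 and Hoxa3) against 19.2%. A match is a description of these letters, and binding was not measured.

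Gene totals ranged from 2507938 to 5080266 counts per library, so that a single count was worth between 0.22 and 0.442 CPM, the unit of all levels here, which scales counts to a common library total with TMM factors. Setd7, which encodes Set7, stood at 60.7 and 66.6 CPM with NTC and at 14 and 10.8 in the knock-down, in keeping with the group labels. Ly6a, which encodes Sca1, did not follow them: its 2 libraries read 9.85 and 5.72 CPM in mESC, 13 and 4.42 in untreated Sca1, 5.44 and 6.46 with NTC and 9.81 and 12.5 in the knock-down, and it was called in none of the 4 comparisons below. In mESC replicate 2 and untreated Sca1 replicate 2, which share the code 56 in their sample descriptions, a ribosomal transcript took 8.63% and 8.97% of counts, against 0.289% to 1.17% in the other libraries.

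Summed over the 38 members, Hox RNA came to 27.9 and 26.4 CPM in mESC, at 413 and 414 in untreated Sca1, at 591 and 558 with NTC, and at 161 and 147 in the knock-down. The groups did not overlap. The knock-down mean was 26.8% of the NTC mean and still 5.67 times the mESC mean. Each of the 4 clusters gave the same order of mESC, knock-down and then the other Sca1 groups. HoxD was the cluster with the highest sum in NTC (204 and 177 CPM) and had 44.5 and 44.2 in the knock-down, 23.3% of the NTC mean. HoxB read 177 and 169 with NTC and 54.6 and 54.5 in the knock-down, or 31.5%. HoxA fell between NTC and knock-down from 122 and 128 to 35.4 and 29.5 CPM (25.9%), and HoxC from 87.4 and 82.9 to 26.6 and 19.1 (26.8%). In bulk RNA, fewer cells that express a gene and less of its RNA in each cell cannot be told apart.

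**Figure D1:**
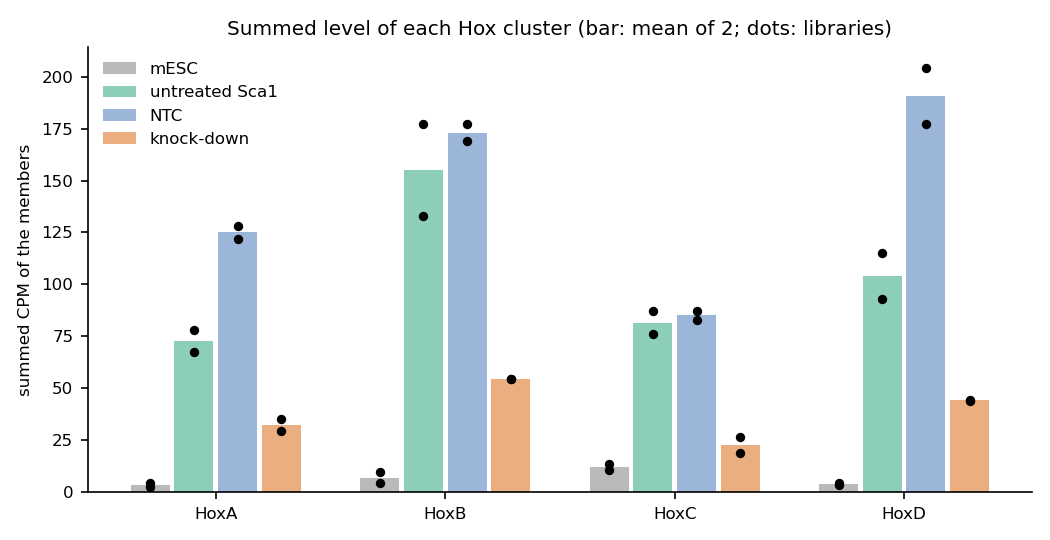
Summed level (CPM) of the listed genes of each Hox cluster. Bars are means of 2 libraries and dots are the libraries; in every cluster the knock-down libraries lie between those of mESC and those of the other 2 Sca1 groups.

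Stem cells held few Hox transcripts, and the largest part of what they held came from the posterior end of HoxC. In the 2 mESC libraries together, 10 members had no count, 14 had 1 to 3 counts and 14 had 4 or more. A member at 0 could still have up to 0.687 CPM in replicate 1 and 0.66 in replicate 2, the worth of 3 counts. Paralogue groups 10 to 13 gave 49.2% and 58.3% of the Hox counts in mESC and 16.3% and 11.8% in untreated Sca1. They gave 8.48% and 9.39% with NTC, and 6.09% and 5.67% in the knock-down. In mESC most of this share was HoxC (33.6% and 42.5% of the Hox counts), where Hoxc13 had 32 and 38 counts. The same groups gave 5.74% and 5% in HoxA, 2.46% and 4.17% in HoxB, and 7.38% and 6.67% in HoxD. Per kilobase of transcript, the highest members in mESC were Hoxc13, a hair follicle and tail gene, at 3.19 CPM per kb, its neighbour Hoxc12 at 2.06, and the thoracic gene Hoxb9 at 1.46. The libraries of Hoxc12 (1.55 and 2.56 CPM per kb) and Hoxb9 (2.31 and 0.599) overlapped. Of the 4 members whose highest group mean was in mESC, 3 belong to group 13 and the fourth is Hoxc12. For Hoxb13 and Hoxd13 this rank is not firm. Hoxd13 read 2.06 and 1.54 CPM in mESC and 2.36 and 1.11 with NTC. Hoxb13 read 0.687 and 1.1 in mESC and 1.05 and 0.44 in the knock-down.

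**Figure D2:**
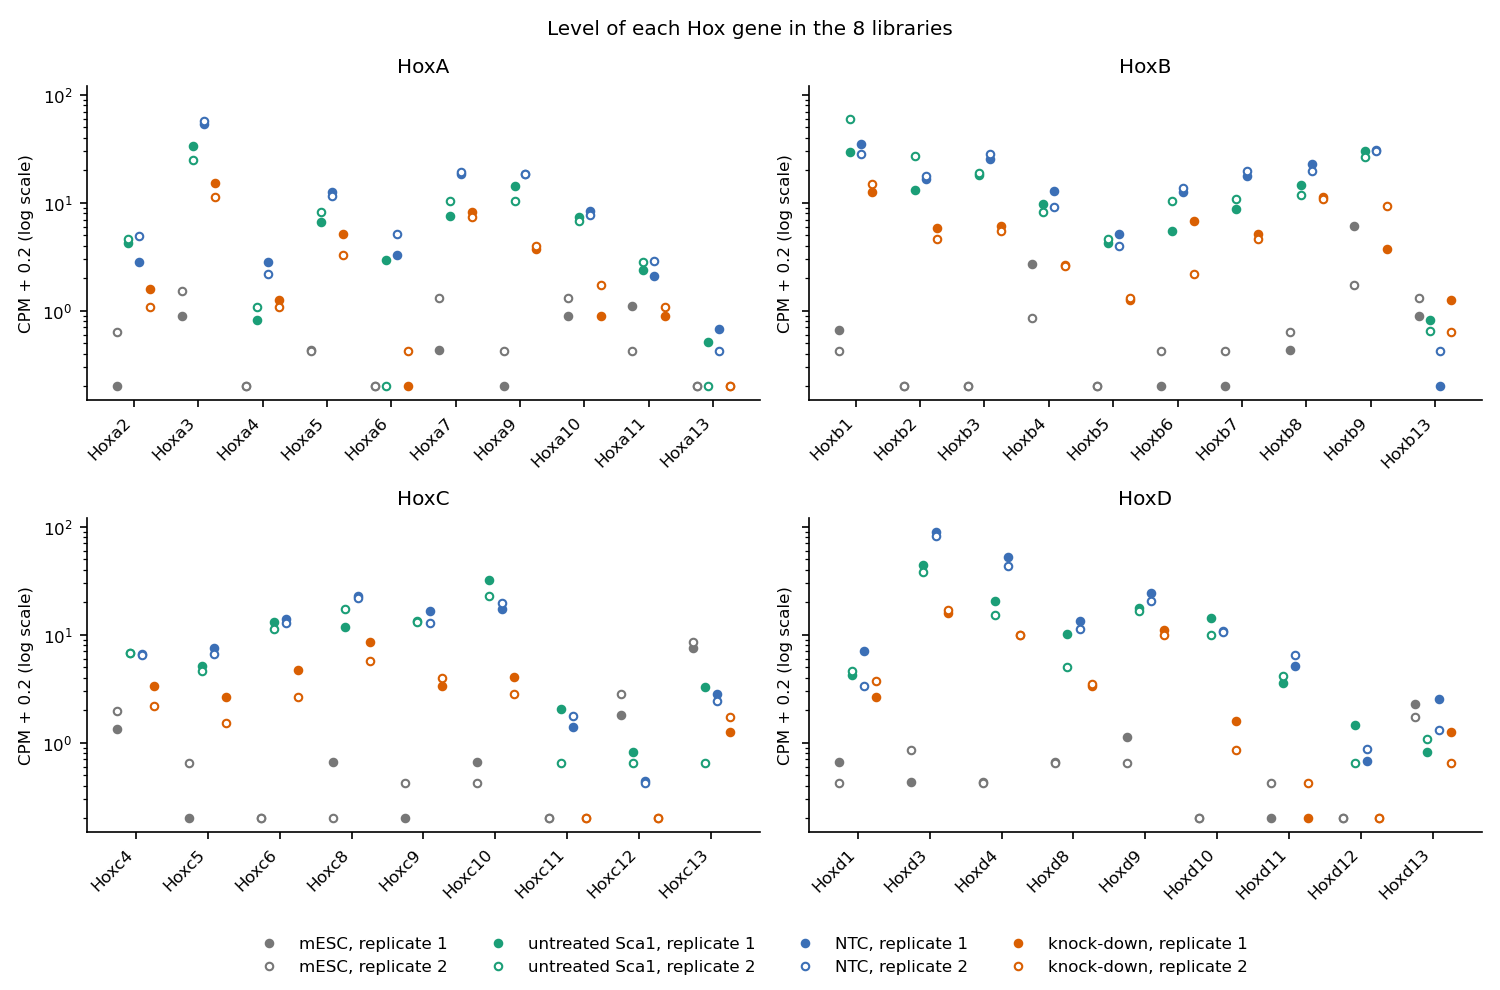
Level of each listed Hox gene (CPM plus 0.2, log axis), by cluster and paralogue number. Filled symbols are replicate 1 and open symbols replicate 2 of each group; most mESC values lie near the floor, while Hoxc12 and Hoxc13 are highest in mESC.

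The first comparison asks how Hox RNA differs between stem cells and Sca1 cells. Of the 31 members with enough counts to be tested, 30 were higher in untreated Sca1 than in mESC and 1, Hoxc13, was lower (edgeR quasi-likelihood test, adjusted p under 0.05). Over all 13966 genes tested, 18.7% were called higher and 16.8% lower. The median log2 fold change of the members tested was 5.16, against -0.01 over all genes tested. A gene this low in stem cells could be tested only because other groups expressed it, so neither figure describes all 38 members. Of the 7 members under the filter, Hoxa4, Hoxc11 and Hoxd12 had no count in mESC and 4, 7 and 5 in untreated Sca1. Hoxa13 had 1 count in untreated Sca1 and none in mESC. Hoxb13, Hoxc12 and Hoxd13 had 8, 19 and 16 counts in mESC and 3, 3 and 4 in untreated Sca1.

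Among the anterior members, which pattern the hindbrain and neck, Hoxb1, a rhombomere gene, had the highest mean per kilobase in untreated Sca1, at 14.1 and 28.6 CPM per kb, and overlapped Hoxc10 (16.8 and 11.8) and Hoxd3 (14.7 and 12.7). Its rank rests on replicate 2, of code 56, since in replicate 1 it stood under both of these genes. It read 0.458 and 0.22 CPM in mESC and 29.4 and 59.6 in untreated Sca1, with the 2 Sca1 libraries far apart. On 230 counts against 3 this was a 124-fold difference (95% counting interval 42 to 607). Hoxd3 read 0.229 and 0.66 CPM in mESC and 43.6 and 37.6 in untreated Sca1 (log2 fold change 6.41 ± 0.34 (SE), adjusted p = 2.28e-10 by edgeR). Hoxa3, which acts in the pharyngeal arches and thymus, went from 0.687 and 1.32 CPM to 33.1 and 24.7 (4.81 ± 0.34, adjusted p = 9.79e-09 by edgeR). Neither of these group 3 genes overlapped between the groups. Hoxb2 and Hoxb3 had no count in either mESC library and 103 and 100 counts in untreated Sca1, at least 55.6-fold and 54-fold higher when 3 counts are put in place of 0. Hoxb2 read 13 and 27 CPM there, and Hoxb3 read 17.9 and 18.6.

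All 15 central members, paralogue groups 5 to 9 of trunk identity, were called higher. Hoxa9, also known from blood stem cells, rose from 0 and 0.22 CPM to 14.2 and 10.2, a 112-fold difference of counts (interval 19.4 to 4480). Hoxc6, with no count in mESC, read 13 and 11 CPM in untreated Sca1, at least 36.2-fold higher. Hoxb9 started highest of this band in mESC, at 5.95 and 1.54 CPM, and read 30.3 and 26.5 in untreated Sca1 (2.93 ± 0.41). Hoxa6 rested on 1 library: it had 9 counts in untreated Sca1 replicate 1 and none in replicate 2, and without replicate 1 its log2 fold change was 0.0.

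The posterior members split. Hoxc10, a lumbar and hindlimb gene, read 0.458 and 0.22 CPM in mESC and 32.1 and 22.5 in untreated Sca1, an 83.7-fold difference of counts (interval 28.1 to 410). Hoxd10, of the same paralogue group, had no count in mESC and 14.2 and 9.72 CPM in untreated Sca1, at least 36.7-fold higher. Hoxc13 went the other way, from 7.33 and 8.36 CPM in mESC to 3.09 and 0.442 in untreated Sca1 (log2 fold change -1.98 ± 0.50, adjusted p = 0.00511 by edgeR). Its groups did not overlap, but the 2 Sca1 libraries lay far apart, and without the 2 libraries of code 56 it was no longer called (adjusted p = 0.0612 by edgeR). Hoxa11 (2.02 ± 0.72, adjusted p = 0.0379 by edgeR) lost its call in 6 of the 8 fits that left out a single library, and without both libraries of code 56 (1.23, adjusted p = 0.343 by edgeR), where 29 members were called higher.

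The second comparison asks what changed with the Set7 shRNA against the non-target shRNA. Of the 31 members tested, 27 were lower in the knock-down and 4 were not called. Over all genes tested, 10.1% were called lower and 4.25% higher. By cluster, 6 of 8 tested fell in HoxA, 9 of 9 in HoxB, 6 of 7 in HoxC and 6 of 7 in HoxD. The median log2 fold change of the members tested was -1.98, against 0 over all genes. No member was called higher by edgeR or DESeq2, and none had an unadjusted p under 0.05 in that direction. Counting also the members under the filter, both knock-down libraries were below both NTC libraries for 36 of 38. The exceptions were Hoxd1, whose libraries overlapped, and Hoxb13, with 5 counts in the knock-down and 1 with NTC. The share of all genes that separate in this way was not counted, so this figure has no background beside it. The count of 27 fell when any 1 of the 4 libraries compared was left out. It fell most without knock-down replicate 2, the deeper knock-down library. Calls over all genes also fell in each of these fits, so the loss was not particular to the members. None of the 27 changed sign.

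**Figure D3:**
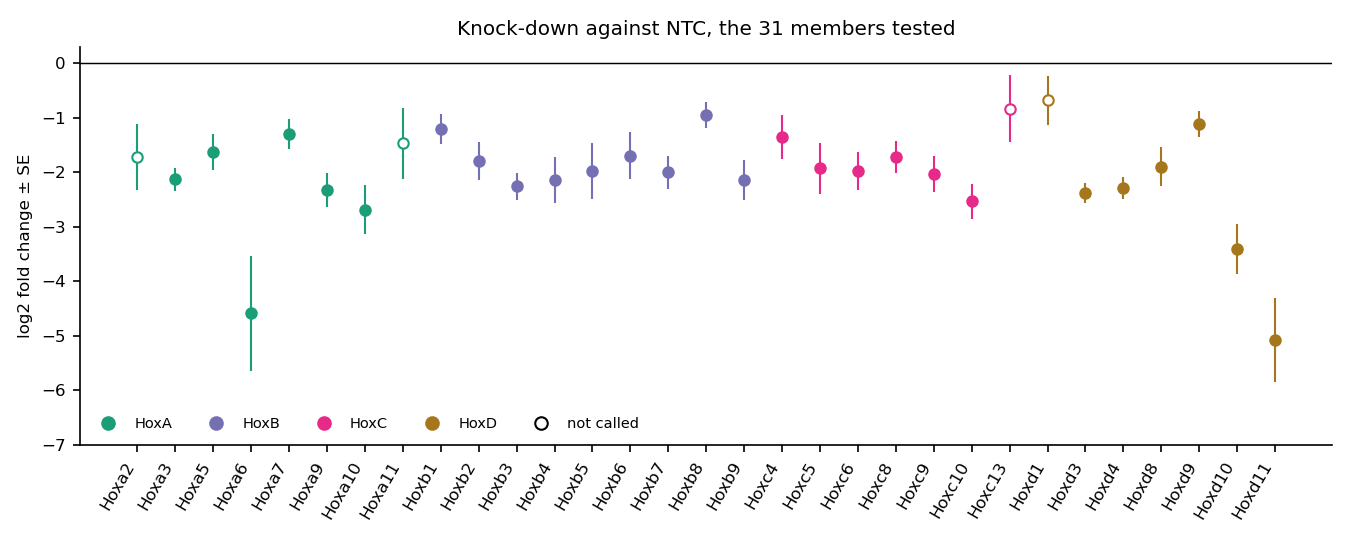
Log2 fold change with its standard error of the 31 tested Hox genes, knock-down against NTC. Filled points were called lower and open points were not called; the far points of Hoxa6 and Hoxd11 rest on 1 knock-down count each.

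Hoxd3 and its neighbour Hoxd4, a cervical vertebra gene, fell from the highest levels. Hoxd3 read 88.9 and 81.4 CPM with NTC and 15.8 and 16.7 in the knock-down (log2 fold change -2.38 ± 0.18, adjusted p = 3.04e-08 by edgeR). Hoxd4 read 52.7 and 43 CPM with NTC and 9.81 and 9.67 in the knock-down (-2.29 ± 0.21, adjusted p = 5.34e-07 by edgeR). The knock-down libraries of each lay close together and well under NTC. The counted exons of 7 members, Hoxd3, Hoxd4, Hoxd10 and Hoxd11 among them, also lie in an exon of another annotated gene on the same strand, and reads of such stretches cannot be told apart. Hoxa3 fell from 54.1 and 57.5 CPM to 15.1 and 11 (-2.13 ± 0.21), and Hoxb3 from 25.3 and 28.1 to 5.95 and 5.28 (-2.26 ± 0.25, the largest fall in HoxB). All 3 group 3 members were therefore called, with 19.1% to 23.3% of the NTC level left.

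Summed, paralogue group 1 kept 35.2% of its NTC level in the libraries of code 12 and 58.1% in those of code 34, and group 2 kept 37% and 23.7%. Hoxb1 went from 35 and 28.3 CPM to 12.3 and 14.7 (-1.21 ± 0.28, adjusted p = 0.00721 by edgeR), which left 42.6% of the NTC level. Its call was lost when either knock-down library or NTC replicate 1 was left out. Over the alternatives its log2 fold change ran from -1.67 to -1.05. Hoxd1, an anterior gene expressed in sensory neurons, read 6.85 and 3.12 CPM with NTC and 2.45 and 3.52 in the knock-down (-0.68 ± 0.45, adjusted p = 0.369 by edgeR), and its libraries overlapped. Hoxa2, the second pharyngeal arch selector gene, read 2.6 and 4.68 CPM with NTC and 1.4 and 0.879 in the knock-down without being called (-1.72 ± 0.60, adjusted p = 0.064 by edgeR). It was called with a replicate block on the code (-1.76 ± 0.60, adjusted p = 0.0433 by edgeR), in the fit of these 2 groups alone, with no low-count filter, without either mESC library and without both libraries of code 56.

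The 15 central members were all called lower by edgeR, over a wide range of sizes. Of these, DESeq2 did not call Hoxa6, Hoxb5, Hoxb6, Hoxb8 and Hoxc5. Without knock-down replicate 2, edgeR called none of those, nor Hoxa5, Hoxa7, Hoxc6, Hoxc8, Hoxd8 and Hoxd9. Hoxb8 changed least of the called members, from 22.5 and 19.6 CPM to 11.2 and 10.6 (-0.95 ± 0.24, adjusted p = 0.0107 by edgeR), leaving 51.7% of the NTC level. It was not called when any 1 of the 4 libraries compared was left out. Hoxd9 (23.9 and 20.1 CPM against 10.9 and 9.67; -1.11 ± 0.24) and Hoxa7 (18.4 and 19.2 against 8.06 and 7.25; -1.30 ± 0.28) also kept over 40% of their NTC level. Hoxc8, of thoracic identity, went from 22.7 and 21.8 CPM to 8.41 and 5.5 (-1.72 ± 0.30). Hoxa9 went from 18.4 and 18.3 to 3.5 and 3.74 (-2.32 ± 0.31), Hoxc9 from 16.3 and 12.5 to 3.15 and 3.74 (-2.03 ± 0.33), and Hoxb9 from 30.7 and 30.1 to 3.5 and 9.23 (-2.14 ± 0.37). None of these overlapped between the groups, although the 2 knock-down libraries of Hoxb9 differed from each other more than those of the others. Hoxa6 had 35 counts with NTC and 1 in the knock-down, a 29.7-fold difference (interval 5 to 1210).

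Of the posterior members, 4 of 6 tested fell. Hoxd10 had 91 counts with NTC and 7 in the knock-down, or 10.6 and 10.3 CPM against 1.4 and 0.659 (-3.41 ± 0.46, adjusted p = 6.38e-05 by edgeR). Hoxd11, which shapes the lower spine and forearm, had 49 counts against 1, a 41.6-fold difference (interval 7.13 to 1680), at 4.96 and 6.24 CPM with NTC and 0 and 0.22 in the knock-down. Hoxc10 went from 17 and 19.4 CPM to 3.85 and 2.64 (-2.53 ± 0.32), and Hoxa10, a uterine and lumbar gene, from 8.27 and 7.58 to 0.7 and 1.54 (-2.69 ± 0.45). For these 4 called members of groups 10 to 13, 1.96% to 17.8% of the NTC level was left, against 19.1% to 42.6% for the 8 called members of groups 1 to 4 and 2.76% to 51.7% for the 15 of groups 5 to 9. Hoxa11 (-1.47 ± 0.65) and Hoxc13 (-0.83 ± 0.61) were not called, with 34.6% and 53.6% left. Of groups 1 to 4, Hoxa2 and Hoxd1 were not called, with 31.3% and 59.8% left. A member with few counts needs a larger fall to be called, so the ranges over called members cannot compare the bands. Among members under the filter, Hoxc11 had 12 counts with NTC and 0 with the Set7 shRNA, a difference of at least 3.4-fold, and Hoxd12 had 5 and none. Hoxa4 had 20 and 7 counts, Hoxd13 15 and 5, Hoxa13 3 and none, and Hoxc12 2 and none.

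Summed by paralogue group over the clusters, the share of the NTC level left in the knock-down ran from 9.72% in group 11 to 60.4% in group 13, leaving aside group 12 with no knock-down count. Groups 3, 4 and 10 kept 20.8%, 23.3% and 14.8%, and groups 1, 7 and 8 kept 45%, 32.9% and 37.9%. Group 11 had only 2 and 5 counts in the 2 knock-down libraries, and group 13 summed to only 5.44 and 3.79 CPM with NTC. By band, groups 1 to 4 kept 25.1%, groups 5 to 9 kept 31.1%, and groups 10 to 13 kept 17.7%. The libraries that share code 12 gave 24.7%, 32.1% and 19.6%, and those that share code 34 gave 25.4%, 30.1% and 15.9%, the same order in both. The difference between bands was not tested.

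**Figure D4:**
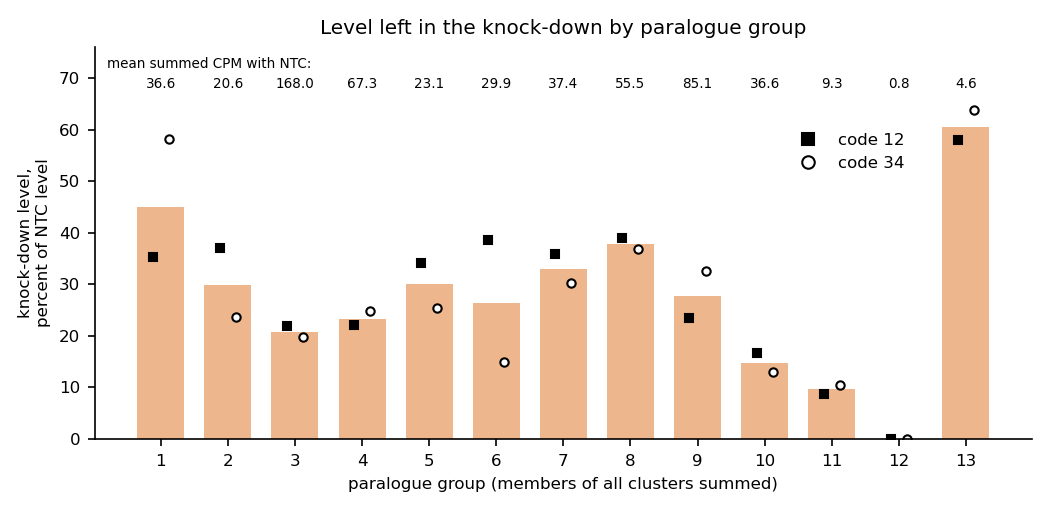
Summed level in the knock-down as a percent of that with NTC, by paralogue group. Bars use group means, symbols compare the libraries that share a code, and the numbers above give the mean summed CPM with NTC. Group 11 kept 9.72%, on 2 and 5 knock-down counts, and group 13 kept 60.4%.

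The third comparison sets the non-target vector against no vector, and it shares the NTC libraries with the second. NTC against untreated Sca1 gave 4 members called higher and none lower by edgeR, where 3.88% of all genes tested were called higher and 1.11% lower. One member, Hoxc10, was lower at an unadjusted p under 0.05, and DESeq2 called none lower and 3 higher. Hoxd4 rose from 20.1 and 15 CPM to 52.7 and 43 (1.42 ± 0.20, adjusted p = 0.000832 by edgeR) and Hoxd3 from 43.6 and 37.6 to 88.9 and 81.4 (1.06 ± 0.16, adjusted p = 0.0013 by edgeR). Hoxa7 rose from 7.42 and 10.2 CPM to 18.4 and 19.2 (1.12 ± 0.29) and Hoxa3 from 33.1 and 24.7 to 54.1 and 57.5 (0.93 ± 0.19). The count was 0 without NTC replicate 1, 2 without NTC replicate 2 and 2 without untreated Sca1 replicate 2, and 7 without both libraries of code 56. The median of the members tested was 0.36, and 26 of the 38 members had their highest group mean with NTC. HoxA and HoxD sums were 1.72 and 1.83 times those of untreated Sca1, HoxB and HoxC sums 1.12 and 1.04 times.

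With untreated Sca1 cells as the control, 21 members were called lower in the knock-down and 0 higher. Over all 13966 genes tested, 1381 were called lower and 1025 higher with this control. Of the 27 called against NTC, 20 kept their call and 7 did not: Hoxa5, Hoxa6, Hoxa7, Hoxb6, Hoxb8, Hoxc5 and Hoxd9. Hoxa7 then changed by -0.18 and Hoxb8 by -0.28 on the log2 scale. The sum of all members in the knock-down was 37.3% of that in untreated Sca1. This comparison and the one with NTC share the knock-down libraries.

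Set beside mESC, 22 members were still higher in the knock-down and 1, Hoxc13, was lower, while 13.5% and 12.4% of all genes were called higher and lower. This comparison shares libraries with the first 2. Hoxd3 and Hoxa3 were 5.08 ± 0.39 and 3.61 ± 0.39 higher on the log2 scale, and Hoxb3, with 41 counts against 0, was at least 16.4-fold higher. Hoxc6 (24 against 0 counts) was at least 9.63-fold higher. Hoxd4 was 43.3-fold higher (interval 11.6 to 365) and Hoxa9 32.5-fold (5.36 to 1330). The 8 tested members that were not called were Hoxa2, Hoxa6, Hoxa10, Hoxa11, Hoxb4, Hoxb9, Hoxc4 and Hoxd11. Hoxd11 had 1 count in each group, and Hoxb4 had 18 counts in the knock-down and 14 in mESC. Hoxc13 read 7.33 and 8.36 CPM in mESC and 1.05 and 1.54 in the knock-down (-2.52 ± 0.50, adjusted p = 0.0012 by edgeR). Groups 10 to 13 together summed to 9.81 and 8.35 CPM in the knock-down, under the 13.7 and 15.4 of mESC. This sum was weighted by Hoxc13 and by Hoxc12, which had 19 counts in mESC and none in the knock-down. Of the 6 members tested in these groups, Hoxc10 and Hoxd10 were called higher than in mESC and only Hoxc13 lower. Of all 12, 4 had a higher mean in the knock-down and 4 a lower one.

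Per kilobase, the first 4 with NTC by group mean were Hoxd3 (28.7 CPM per kb), Hoxa3 (21.5), Hoxd4 (18.7) and Hoxb1 (15.2), and the last 2 met at 16.8. Hoxb1 (16.8 and 13.6) also overlapped the next member, Hoxb7 (13.7 and 15). In the knock-down Hoxb1 led at 6.47 CPM per kb, with Hoxd3 at 5.47 and Hoxa3 at 5.03. Both knock-down libraries of Hoxb1 (5.88 and 7.06) lay above those of Hoxd3 (5.31 and 5.63) and Hoxa3 (5.81 and 4.24), by little, and the last 2 genes overlapped.

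Chromosome 15, which holds HoxC, stood apart from the other 3: the median log2 fold change of its other tested genes was 0.40 in the knock-down against NTC, and 0.47 against mESC. The medians for the chromosomes of HoxA, HoxB and HoxD were -0.19, -0.01 and 0.01 against NTC. HoxC members fell against this background, and their fall relative to it is larger by 0.40 than the values given. The part of chromosome number in the HoxC values was not tested. Outside the clusters, 20 neighbour genes were tested, 28.1 to 910 kb from the nearest member. Between knock-down and NTC, 3 were higher (Atp5g2, Cbx5 and Hnrnpa1, all on chromosome 15, by 0.76, 0.69 and 0.69) and Skap2, beside HoxA, was lower, at -0.56 ± 0.18. Between untreated Sca1 and mESC, Skap2, Ttll6 and Atp5g2 were lower, and no neighbour was called higher or had an unadjusted p under 0.05 in that direction by edgeR.

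Of 11 counted non-coding genes of the clusters, 3 could be tested, and all 3 were lower in the knock-down than with NTC. Hoxaas3, antisense in HoxA, read 0.229 and 0.44 CPM in mESC, 19.5 and 16.3 in untreated Sca1, 32.6 and 37 with NTC and 7 and 5.06 in the knock-down (-2.56 ± 0.25 against NTC). Mira, between Hoxa6 and Hoxa7, read 0.687 and 1.1, then 11.1 and 7.51, 13.7 and 12.5, and 4.9 and 3.74 CPM in the same order (-1.62 ± 0.32). Gm53, of the HoxB region, differed: at 19 and 33 CPM it was already expressed in mESC, and it fell from 37.1 and 27 with NTC to 11.9 and 10.3 (-1.54 ± 0.26). The strand used in counting is not given in the sources used here. By annotation, 8 members overlap an exon of an opposite-strand gene, among them Hoxa3 and Hoxa7 with Hoxaas3 and Hoxd3 with Hoxd3os1, so reads from these partners cannot be told apart.

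Of 8 Hox cofactor genes tested, 5 were higher in untreated Sca1 than in mESC and 3 were lower in the knock-down than with NTC. Meis1, a partner of posterior Hox proteins, read 8.47 and 7.92 CPM in mESC, 27.8 and 15.5 in untreated Sca1, 20.3 and 23.2 with NTC and 2.1 and 2.64 in the knock-down (-3.15 ± 0.34), which is also under its mESC level (-1.74 ± 0.39). Both knock-down libraries were below those of the other groups. Meis2 and Pknox2 fell by 1.56 and 1.59 on the log2 scale against NTC.

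Of 4 tested Cdx and Evx genes, all were higher in untreated Sca1 than in mESC, and 1 was called, higher, in the knock-down against NTC. The Cdx genes are direct activators of central Hox genes. Cdx2 read 7.1 and 6.16 CPM in mESC, 69.8 and 78.6 in untreated Sca1, 75.9 and 76.5 with NTC and 79.2 and 73.4 in the knock-down, where its libraries overlapped those of NTC. Cdx4 had no count in mESC and read 9.27 and 15 CPM in untreated Sca1, 15.1 and 14.7 with NTC and 9.11 and 8.13 in the knock-down, where it was not called (-0.80 ± 0.29, adjusted p = 0.0735 by edgeR). Cdx1 was 0.54 ± 0.15 higher in the knock-down than with NTC (adjusted p = 0.0214 by edgeR). Evx1, the even-skipped gene at the posterior end of HoxA, read 23.6 and 23 CPM with NTC and 17.5 and 19.1 in the knock-down and was not called. Pdx1, Gsx1, Gsx2 and Evx2 were under the filter.

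Of 19 signal genes tested that act on Hox clusters, 14 were higher and 1, Fgf4, lower in untreated Sca1 than in mESC, and 7 were lower in the knock-down than with NTC. Retinoic acid genes were 10 of the 19 tested and 5 of these 7. Cyp26a1, which degrades retinoic acid, fell from 65.9 and 63.3 CPM to 14.7 and 16.3 (-2.05 ± 0.19), the receptor gene Rarb by 1.66 and the binding protein genes Crabp1 and Crabp2 by 1.85 and 1.58 on the log2 scale. Rara fell by 0.73. The other five tested were not called: Dhrs3 and Aldh1a2 stood at -1.05 ± 0.37 and -1.04 ± 0.48, Rxra and Rdh10 at -0.24 ± 0.20 and -0.23 ± 0.20, and Rarg, at 156 and 157 CPM with NTC and 192 and 194 in the knock-down, at 0.30 ± 0.12. The other 2 were Wnt5a, a growth factor of the extending axis (46.1 and 50.4 CPM against 11.9 and 13.2; -1.93 ± 0.20), and Gdf11, which promotes posterior Hox expression (-1.38 ± 0.34). T and Fgf8, markers of the growing tail bud, were not called: T read 87.9 and 90.3 CPM with NTC and 93.5 and 111 in the knock-down, and Fgf8 32.9 and 24.1 against 28.4 and 24.4.

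**Figure D5:**
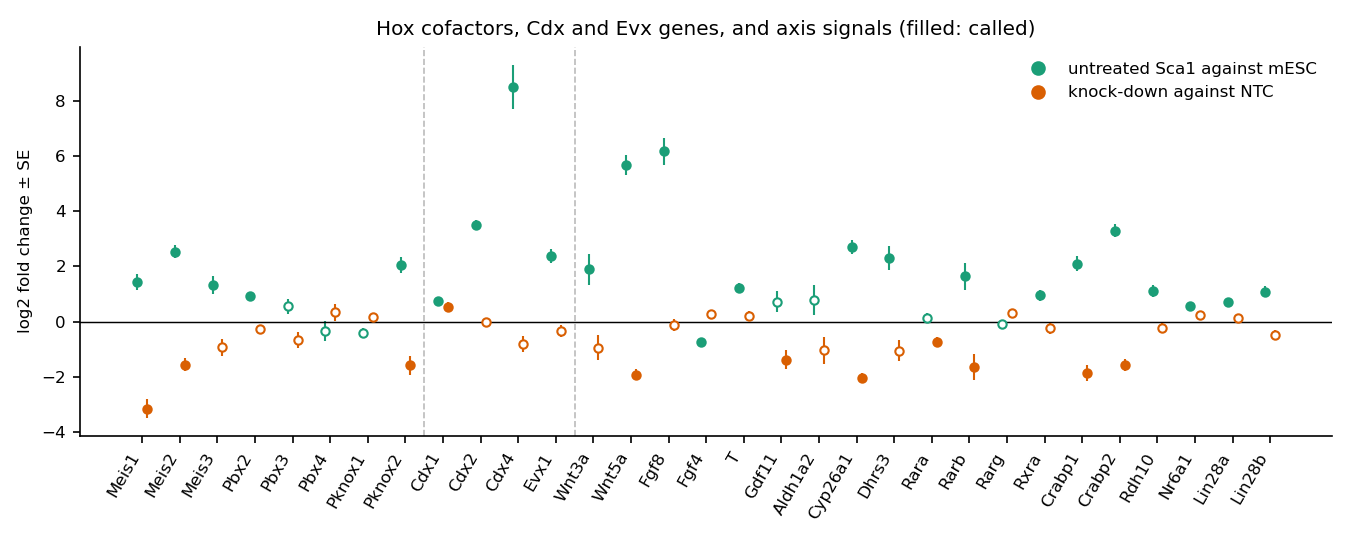
Log2 fold change with its standard error of the tested Hox cofactors, Cdx and Evx genes, and axis signals (separated by dashed lines) in 2 comparisons that share no library. Filled points were called; Meis1 and Cyp26a1 are among the called falls in the knock-down, while Cdx2 lies at 0. The point of Cdx4 against mESC rests on 0 mESC counts.

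Of 25 Polycomb and trithorax genes, which repress and activate Hox clusters, 4 rose and 2 fell between NTC and knock-down, where 4.25% and 10.1% of all genes were called higher and lower. The share that fell is near that of all genes. Suz12, Eed and Mtf2, of the H3K27 methylating complex, rose by 0.46, 0.38 and 0.44 on the log2 scale, and Cbx7, a reader of that mark, rose by 0.60. Other genes of the complex were not called, among them Ezh2, at 185 and 173 CPM with NTC and 189 and 181 in the knock-down. Aebp2 read 130 and 134 CPM with NTC and 139 and 138 in the knock-down. Cbx8 fell on 26 against 4 counts (-2.39 ± 0.64). Kdm6b, a demethylase that removes the mark, read 69.7 and 54.6 CPM with NTC and 22.8 and 18.7 in the knock-down (-1.60 ± 0.18). Jarid2 stood apart in the code 56 libraries, at 2590 CPM in mESC replicate 2 and 2670 in untreated Sca1 replicate 2, against 352 to 570 in the other libraries.

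The summed fibroblast or feeder and smooth muscle markers moved in the same groups as the Hox sum. The mesoderm sum rose from mESC to untreated Sca1 but was only a little lower in the knock-down than with NTC. The stem cell, spinal neural and blood sums did not follow the Hox sum. The part of any of these cell types in the Hox results was not tested. The 8 fibroblast or feeder cell markers summed to 22.4 to 27.5 CPM in mESC, 758 to 838 in untreated Sca1, 1810 to 1880 with NTC and 83.7 to 94.9 in the knock-down. Between NTC and knock-down 6 of the 7 tested fell, and Thy1 was not called. Dcn, Lum and Postn were at 0 in both mESC libraries and Postn in both knock-down libraries. The 8 smooth muscle markers summed to 40.5 to 47.9, 586 to 944, 582 to 606 and 164 to 171 CPM in the same order, with 5 of 7 tested lower in the knock-down. The 8 mesoderm markers summed to 47.1 to 57.2, 146 to 191, 125 to 128 and 115 to 123 CPM, and Msgn1, Meox1, Foxc1 and Hand1 fell in the knock-down. The 10 stem cell markers, all with counts in every library, summed to 3960 to 4380, 2280 to 2650, 2260 to 2350 and 2960 to 3090 CPM, with Sox2, Klf2 and Utf1 higher in the knock-down than with NTC. Of 8 spinal neural markers, which also mark a Hox-expressing tissue, Olig2 was at 0 in all libraries. Their sum, between 54.4 and 69 CPM, was mostly Tubb3, which was called higher in the knock-down than with NTC (44 and 42.1 against 63 and 60.4 CPM). Pax3 rose from 0.229 and 0.22 CPM in mESC to 10.8 and 11 in untreated Sca1, and read 4.73 and 4.9 with NTC and 1.05 and 2.64 in the knock-down, where it was not called. The 6 blood markers summed to 13.7 to 52.2 CPM over all libraries, with Ptprc at 0 except in the knock-down.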

How the data were processed

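The deposited values were whole-number read counts per RefSeq transcript in 8 libraries, per the file headers and the values, with no scaling found. Per the labels' protocols, poly(A) RNA was selected and sequenced on a Genome Analyzer IIx. Per the submitters' processing notes, BWA 0.5.9, SAMtools 0.1.17 and edgeR 0.19 were used, without their roles. For build, counting program and strand: not given in the sources used here. Of 29614 transcripts, 28981 took a symbol from a RefSeq table (GRCm38.p6), 177 from GENCODE vM21 and 456 none. Gene models came from GENCODE vM21 (GRCm38).

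Counts were filtered (filterByExpr), scaled by TMM and fitted in R 4.3.3 with edgeR 4.0.16, using the 8 libraries together and a mean for each group, which left 4 residual degrees of freedom. Robust quasi-likelihood tests were adjusted by Benjamini-Hochberg over 13966 genes, with calls at an adjusted p of 0.05. Standard errors are fold changes (log2) divided by the root of F. Where a group had 0 counts over its libraries, a least fold used 3 counts. With 1 to 3 counts, a ratio with an exact 95% interval is given, covering counting error only. Full values are given for the 3 members of each cluster with the highest group mean, the largest called change of each comparison, cluster and direction, and members that went against their cluster. Further members were named with their values known. The members and lists were chosen with earlier results of these data known. A Hox gene outside the list and a gene of another list are not reported here. On simulated data the fit recovered 71.6% of 2-fold changes in untreated Sca1 against mESC and 70.1% in the knock-down against NTC, over 13966 genes. The simulation gave every group the same spread and was not limited to the low counts of the members, so it does not give the recovery for them. Alternatives were RLE factors, library totals, DESeq2 1.42.0, other filters, 2-group fits, summed transcripts, untreated Sca1 as control, subtraction of chromosome medians, a block on the code and each library left out. Leaving out both code 56 libraries was added after seeing the data. Replicates of mESC and untreated Sca1 differed by a chi-square of 49.7 and 36.9 per degree of freedom, those of NTC and knock-down by 1.5 and 1.99, more than sampling noise in each group.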

Additional observations from a re-analysis of the deposited data

How the results depend on the processing

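No called change of a member changed sign under any alternative that was run. In NTC against untreated Sca1 the count of members higher, 4, ranged from 0 to 5 over the fits that left out a library, and was 7 without both code 56 libraries. The count lower, 0, ranged from 0 to 1 and was 1 without both code 56 libraries. In knock-down against NTC the count lower, 27, ranged from 12 to 28, was 21 with DESeq2 and 21 with untreated Sca1 as control. In knock-down against mESC the count lower, 1, ranged from 1 to 2 and was 2 with no low-count filter. In untreated Sca1 against mESC the count lower, 1, was 0 without both code 56 libraries, and the count higher, 30, was 28 with DESeq2. The cause of these differences was not tested. The code in the descriptions was tried as a replicate block. Deviations from group means correlated at 0.265 (mESC and untreated Sca1, 2 pairs) and 0.053 (NTC and knock-down, 2 pairs), which was not taken as a pairing of the libraries. The code 56 libraries share a high ribosomal share and a high Jarid2 level, as given in the report. With the block the counts higher and lower were 30 and 1, 0 and 28, 4 and 0, and 21 and 1 in the order of the comparisons in the report. Depth limits the members under the filter, most of which hold a few counts per library.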
